A study of Mus musculus with 6 samples.

Results

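The genes described here are 34 type I interferon-stimulated genes, chosen by name as a list of antiviral effectors, sensors and regulators. Of the 34, 33 were counted, out of 32286 gene features in the series, and Mx1 was not used here. Their raw UMIs (unique molecular identifiers, 1 per captured transcript molecule) were read in single immune cells of mouse livers taken 30 days after infection. The study asked how bile acid synthesis in the liver bears on immune cells during liver cancer. Its 3 groups were mock (infected without virus), AAV-sgSCR (given an adeno-associated virus with a non-targeting control guide) and AAV-sgBaat (given such a virus with a guide to Baat, whose enzyme conjugates bile acids in hepatocytes). The sample titles name the mock livers "native", while the series text counts them among tumor-bearing livers. Each group was 1 library, a pool of 3 tumor samples, in which T cells (CD45hi CD3+) and the remaining CD45hi cells had been sorted apart and run together. The labels used here give no strain, age, promoter or tumor model.

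Type I interferons (the interferon alpha genes and interferon beta) bind a receptor made of the Ifnar1 and Ifnar2 chains on nearly every nucleated cell. The receptor's kinases Jak1 and Tyk2 phosphorylate Stat2, which with Irf9 is part of the factor ISGF3, and ISGF3 binds the interferon-stimulated response element near the start of its target genes. In the liver the products of these genes limit viral replication, and in tumors interferon-responsive cells are found among T cells, monocytes, macrophages and neutrophils.

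The element has as its core the letters GAAANNGAAA, or TTTCNNTTTC when read on the other strand. The RefSeq promoter table (GRCm38.p6) held a window of 300 bases, 250 before and 50 after the start, for 25 members, and 15 of them (60%) carried at least 1 match on either strand, 7 of them with 2 or more. Over all 27025 genes with a window the share was 3.99% with a match and 0.266% with 2 or more. The windows below were chosen because their genes return in the results, with the match in capitals and 8 bases on each side, and each is written along the gene's own strand. They lie at chr4:156200879-156200904 (Isg15, minus strand), chr19:34640777-34640802 (Ifit1, plus), chr19:34583365-34583390 (Ifit3, plus), chr19:34607761-34607786 (Ifit3b, plus), chr8:71537585-71537610 (Bst2, minus), chr10:128270268-128270293 (Stat2, plus), chr12:26456555-26456580 (Rsad2, minus) and chr5:120777717-120777742 (Oas3, minus).
Isg15: tgccgtagGAAAAGGAAAccgaaaca
Ifit1: ggcttcagTTTCACTTTCcagtctca
Ifit3: gtggtaagTTTCACTTTCctcttctg
Ifit3b: gtggtaagTTTCACTTTCctcttctg
Bst2: cattccagGAAAATGAAActgaaagg
Stat2: caccctggTTTCAGTTTCctttccct
Rsad2: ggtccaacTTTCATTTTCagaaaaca
Oas3: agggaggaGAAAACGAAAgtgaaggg

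The matches began 78 bases before the start in Isg15, 104 in Ifit1, 156 in Ifit3, 188 in Ifit3b, 130 in Bst2, 222 in Stat2, 120 in Rsad2 and 75 in Oas3. Isg15 carried 3 matches that overlap each other, and Bst2 and Oas1a carried overlapping pairs. Ifit3 and its copy Ifit3b had the same letters in both of their windows, and reads of such near-identical copies (Ifit3 and Ifit3b, Ifit1 and Ifit1bl1, the Ifi200 and Oas genes) cannot be assigned with certainty. Members with a match were 6 of 10 among the core genes defined further on and 9 of 15 among the others. No window was at hand for Oas2, Usp18, Ifi27l2a, Zbp1, Rtp4, Ifi204, Dhx58, Parp14 and Mx1. The members sit on 14 chromosomes, with all 5 Ifit genes within chr19:34550550-34662981.

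The libraries held 6431 (mock), 8073 (AAV-sgSCR) and 9386 (AAV-sgBaat) barcodes, of which 6068, 7332 and 7094 passed the filters, with medians of 4164, 5911 and 3811.5 gene UMIs. Between 10 and 16 barcodes were shared by any pair of libraries. Cells were placed in 19 lineages by UMIs of marker genes, none of which is a member, so each lineage name stands for a marker gate. Barcodes with markers of more than 1 compartment were set apart (383, 1468 and 1938), and those with too few markers stayed ungated (65, 296 and 598). With 1 library per group no difference could be tested, and every interval given is a 95% interval that covers counting error only. Levels are counts-per-million (CPM), the UMIs of a gene scaled by all gene UMIs of the lineage, not divided by length, so they are compared between libraries and lineages, not between genes.

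In the AAV-sgSCR library the 33 members together were highest in monocytes. Their summed level was 7725 CPM in patrolling monocytes and 7362 CPM in classical monocytes. It was 6093 CPM in Cd209a-positive cDC2, 4621 CPM in C1q macrophages, 3935 CPM in plasmacytoid dendritic cells and 3829 CPM in mature neutrophils. Lymphocytes lay lower, with 2286 CPM in CD4 T cells, 1725 CPM in B cells, 1460 CPM in CD8 T cells and 1120 CPM in NK and ILC1-like cells. Not all myeloid cells were high, since migratory dendritic cells had 1466 CPM, cDC1 1443 CPM and myeloid progenitors 872 CPM. The lowest level over lineages with at least 50 barcodes, 498 CPM, belonged to T cells positive for Dntt and Arpp21, genes of immature lymphocytes. The order was not the same in AAV-sgBaat, where myeloid progenitors (1610.3 CPM) lay above NK and ILC1-like cells (1197 CPM).

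**Figure D1:**
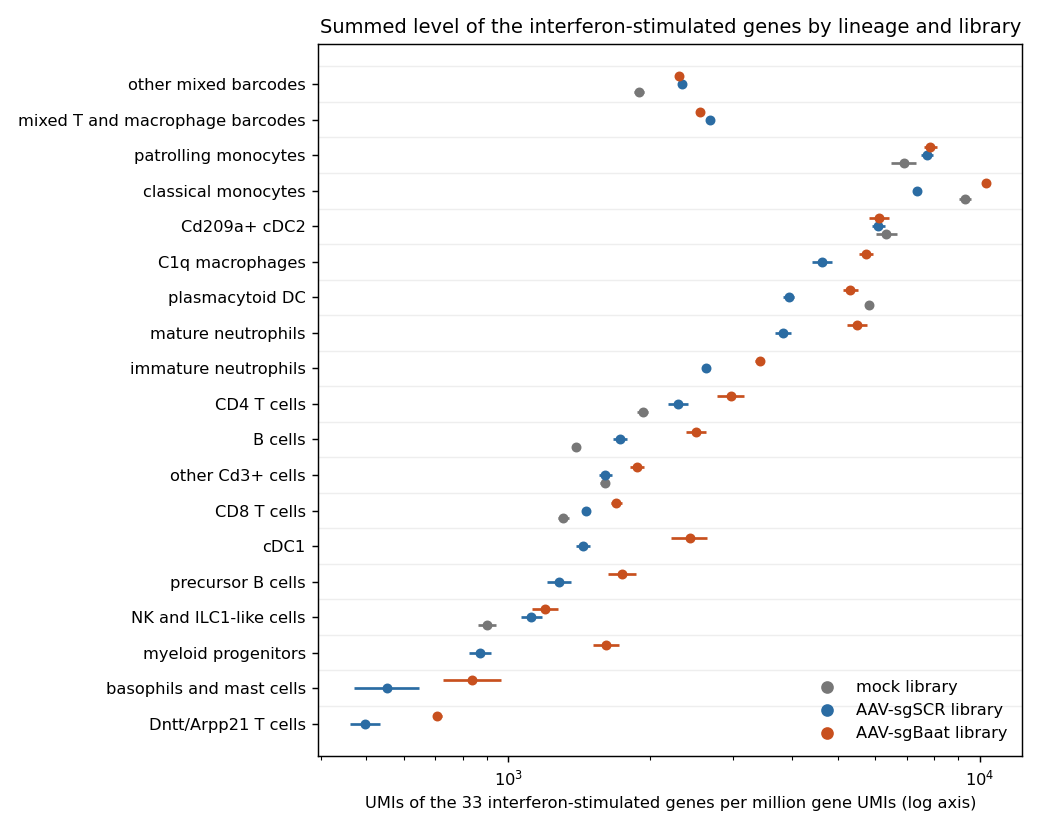
Summed level of the 33 members in CPM (log axis) by lineage, 1 point per library with its 95% counting interval, for lineages with at least 20 barcodes and both classes of mixed barcodes. AAV-sgBaat points lie to the right of AAV-sgSCR points in most lineages (classical monocytes 10310.0 against 7362 CPM), while those of patrolling monocytes (7847 against 7725) and of Cd209a-positive cDC2 (6109 against 6093) nearly coincide.

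The summed level in AAV-sgBaat exceeded that in AAV-sgSCR in 14 of the 14 lineages with at least 50 barcodes in both, by 1.02-fold to 1.85-fold. The interval lay above equality in 12 and below it in 0, and the difference passed 1.5-fold in 1 lineage, the myeloid progenitors. In barcodes that mixed T cell and macrophage markers the level was 2672 CPM in AAV-sgSCR and 2551 CPM in AAV-sgBaat, a log2 ratio of -0.07 (-0.10 to -0.04), so the direction of the gated lineages was not shared by the mixed ones. With Ifitm3, the member with most UMIs in the AAV-sgSCR library, left out, 13 of the 14 lineages were higher, all but patrolling monocytes.

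Classical monocytes had 9298 CPM (9009 to 9594) in mock from 51 cells, 7362 (7256 to 7469) in AAV-sgSCR from 318 cells and 10310.0 (10098 to 10526) in AAV-sgBaat from 157 cells. The AAV-sgSCR library was thus the lowest of the 3 in these cells, and the log2 ratio of AAV-sgBaat over AAV-sgSCR was 0.49 (0.45 to 0.52), or 0.65 (0.61 to 0.70) without Ifitm3. In B cells the levels were 1390 CPM in mock, 1725 in AAV-sgSCR and 2502 in AAV-sgBaat, a log2 ratio of the AAV libraries of 0.54 (0.45 to 0.62). For CD8 T cells they were 1309, 1460.2 and 1695 CPM, a ratio of 0.21 (0.17 to 0.26), and the 3 libraries did not overlap in their intervals.

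Plasmacytoid dendritic cells, the specialised producers of type I interferon, had 5811 CPM in mock, 3935 in AAV-sgSCR and 5310 in AAV-sgBaat. Their ratio of AAV-sgBaat over AAV-sgSCR was 0.43 (0.37 to 0.50), with the mock library the highest. Among plasmacytoid dendritic cells of 5000 to 10000 UMIs the levels were nearly equal, at 5879 (5751 to 6010), 5746 (5557 to 5940) and 5801 (5524 to 6088) CPM. The low AAV-sgSCR level lay in 40 barcodes of over 10000 UMIs, at 2105 CPM, where 23 such mock barcodes had 5485 CPM. Hepatocyte transcripts stood at 960 CPM in these cells of the AAV-sgSCR library, against 9.82 in mock and 3.50 in AAV-sgBaat, and their part in the difference was not tested. Mature neutrophils had 3829 CPM in AAV-sgSCR and 5487 in AAV-sgBaat, a log2 ratio of 0.52 (0.43 to 0.61), and immature neutrophils 2627 and 3411, a ratio of 0.38 (0.33 to 0.42). C1q macrophages had 4621 and 5736 CPM, a ratio of 0.31 (0.23 to 0.40), and only 1 such cell was found in mock.

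Some lineages differed little or depended on the processing. The ratio was 0.02 (-0.04 to 0.08) in patrolling monocytes and 0.10 (-0.03 to 0.22) in NK and ILC1-like cells. It was 0.37 (0.25 to 0.49) in CD4 T cells, from 145 and 88 cells, but -0.37 when the marker thresholds were doubled. It was 0.75 (0.61 to 0.88) in cDC1, where the AAV-sgBaat library had only 21 cells. In myeloid progenitors the levels of 872 and 1610.3 CPM, a ratio of 0.88 (0.76 to 1.01), came from cells with median depths of 21174 and 1825.5 UMIs. Progenitors of over 10000 UMIs had 836 (789 to 885) CPM in AAV-sgSCR and 1499 (1387 to 1617) in AAV-sgBaat. These were 60 and 25 cells, with median depths of 22841.5 and 15524 UMIs.

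Depth per cell was lower in AAV-sgBaat than in AAV-sgSCR in most lineages, for example medians of 5025 and 3644 UMIs in CD8 T cells and 7641 and 5552 in classical monocytes. Among cells of 2000 to 5000 UMIs alone, the level was 7800 CPM in AAV-sgSCR and 11141 in AAV-sgBaat in classical monocytes, 1549 and 2172 in B cells, and 3752 and 5896 in mature neutrophils. For CD8 T cells of that depth it was 1560 and 1720.5 CPM. Other depths gave other sizes and, in part, the other direction. At 5000 to 10000 UMIs the AAV-sgSCR and AAV-sgBaat levels were 7925 and 9777 CPM in classical monocytes and 1280 and 1692 CPM in CD8 T cells. CD8 T cells of over 10000 UMIs had 1744 (1690 to 1800) and 1417 (1299 to 1542) CPM, from 167 and 29 cells, and mature neutrophils of 1000 to 2000 UMIs had 4821 (4361 to 5316) and 4109 (3693 to 4559) CPM. In both of these windows AAV-sgBaat was the lower library.

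The 3 members with most UMIs in a lineage made up between 40.6% of its sum, in NK and ILC1-like cells of AAV-sgSCR, and 84.8%, in plasma cells and plasmacytoid dendritic cells of mock. In classical monocytes Ifitm3, a membrane protein that blocks viral fusion, made up 51.6%, 49.6% and 43.3% of the sum in mock, AAV-sgSCR and AAV-sgBaat. In plasmacytoid dendritic cells Bst2 (tetherin, which holds budding virus at the cell surface) led, with 3965, 2291 and 3195 CPM. In B cells Ifi27l2a and Ifi203 led. In the AAV-sgSCR library the highest level of 9 members was in patrolling monocytes, of 6 in CD4 T cells and of 5 in mature neutrophils. In mock 21 members had their highest level in classical monocytes and 6 in plasmacytoid dendritic cells. Both rankings took only lineages with at least 50 barcodes. In mock this left out patrolling monocytes (20 barcodes), Cd209a-positive cDC2 (24), mature neutrophils (9) and C1q macrophages (1), so the rankings cover different lineages.

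**Figure D2:**
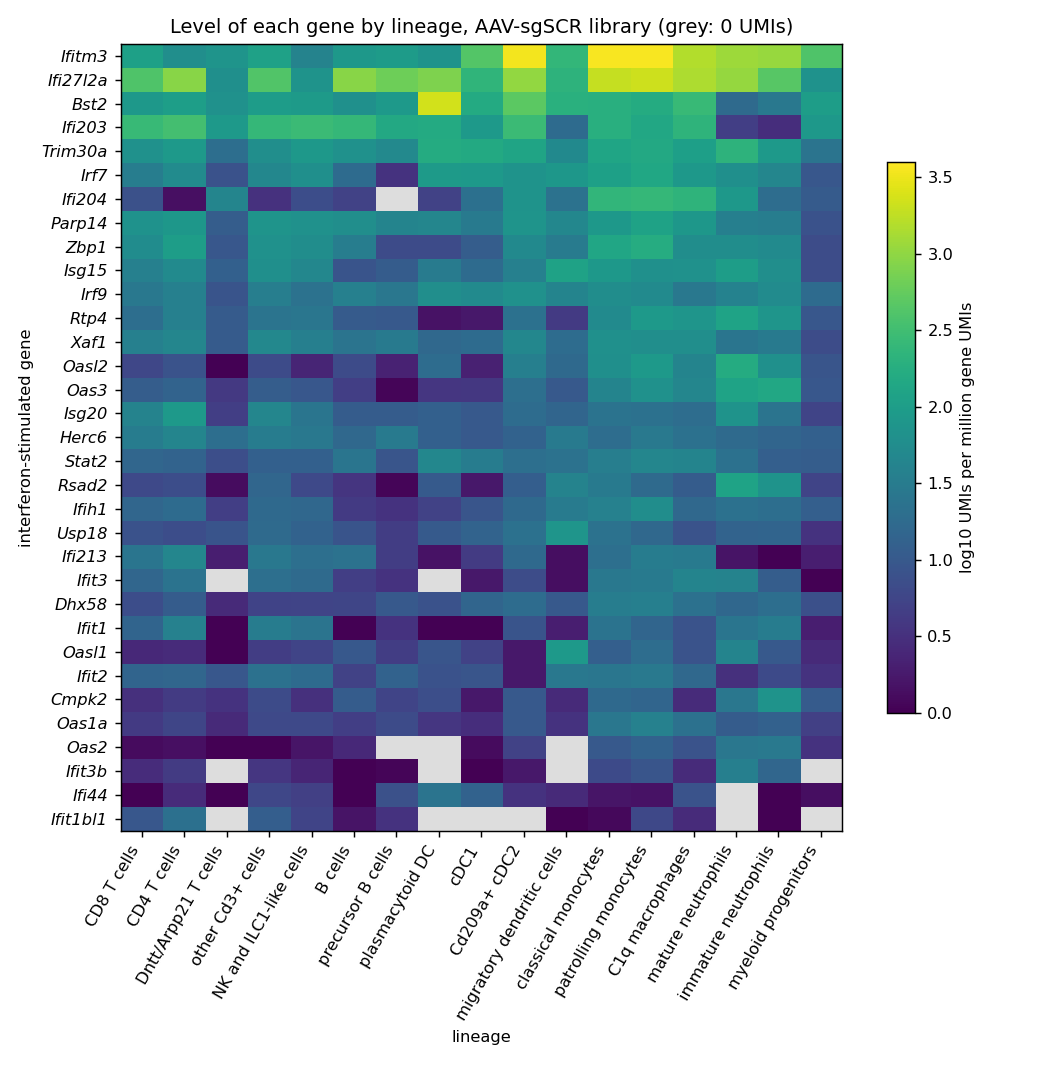
Level of each counted member (vertical) in 17 lineages with at least 50 barcodes in the AAV-sgSCR library (horizontal), as log10 of CPM, with grey for 0 UMIs. Ifitm3 and Ifi27l2a are bright in monocytes (3652 and 1904 CPM in classical monocytes), and Bst2 is brightest in plasmacytoid dendritic cells (2291 CPM).

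A member was counted in a lineage when both libraries together held at least 20 of its UMIs, and called when its levels differed at least 1.5-fold. In classical monocytes 29 of the 31 counted members were above AAV-sgSCR in the AAV-sgBaat library. Of these 13 were at least 1.5-fold higher and 1 at least 1.5-fold lower, where 6.95% of the 8204 genes counted were that much higher and 13.7% that much lower. The members' median log2 ratio was 0.48, beside -0.05 over all genes counted. B cells had 18 of 24 members higher and 9 called higher (6.13% of all genes), with a median of 0.52 beside -0.09. Without the few strongly positive cells defined further on, the members called higher numbered 8 of 30 in classical monocytes and 0 of 18 in B cells. Called lower were then Ifit1 (log2 ratio -1.10) and Stat2 (-0.91) in classical monocytes, and Ifitm3 (-1.81), Cmpk2 (-0.95) and Zbp1 (-0.66) in B cells. The shares of all genes called without these cells were not computed. The cells were chosen by UMIs of 11 of the members, so leaving them out lowers the levels of those members by construction. Of the 9 called higher with all B cells, 5 (Ifit2, Ifit3, Oasl2, Rsad2 and Ifih1) then had under 20 UMIs and were no longer counted. All but Ifit2 of these 5 kept a difference of over 1.5-fold. The other 4 fell under the fold, Ifi27l2a at 1.497-fold, Ifi213 at 1.46-fold and Isg15 at 1.42-fold, with Irf7 at equal levels.

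Mature neutrophils had 17 of 22 members higher, 9 called higher and 1 called lower, where 13.1% and 27.2% of all genes were called, and a median of 0.38 beside -0.18. C1q macrophages had 17 of 22 higher and 9 called higher (11.5% of all genes), and myeloid progenitors 15 of 16 higher and 11 called higher (8.32%). Plasmacytoid dendritic cells had 15 of 18 higher, 4 called higher (6.61%) and 1 called lower (15.5%). In cDC1, 15 of 20 members were higher and 10 were called higher, in a lineage where 21.2% of all genes were called higher.

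Dntt/Arpp21-positive T cells had 20 of 29 members higher, 7 called higher (7.07%) and 2 called lower (7.11%). Their Ifit3 had 0 UMIs in AAV-sgSCR and 34 in AAV-sgBaat, a 1.66-fold difference when 0 is read as 3 UMIs. T cells of the other gates showed smaller counts. Among CD8 T cells 19 of 31 members were higher, 4 were called higher and 1 lower, where 8.97% and 11.6% of all genes were called, and the median was 0.26 beside -0.03. In Cd3-positive cells outside the CD4, CD8 and Dntt/Arpp21 gates, 10 of 28 members were higher, 3 called higher (13.4%) and 2 called lower (11.6%), and the median was -0.14. NK and ILC1-like cells had 11 of 22 higher, 2 called higher (6.61%) and 5 called lower (11.3%). Patrolling monocytes had 12 of 26 higher, 1 called higher (8.67%) and 3 called lower (13.5%). In Cd3-positive cells outside the CD4, CD8 and Dntt/Arpp21 gates, the higher summed level thus did not extend to most members. CD4 T cells had 14 of 19 members higher, 2 called higher (10.2%) and 2 called lower (14.8%).

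**Figure D3:**
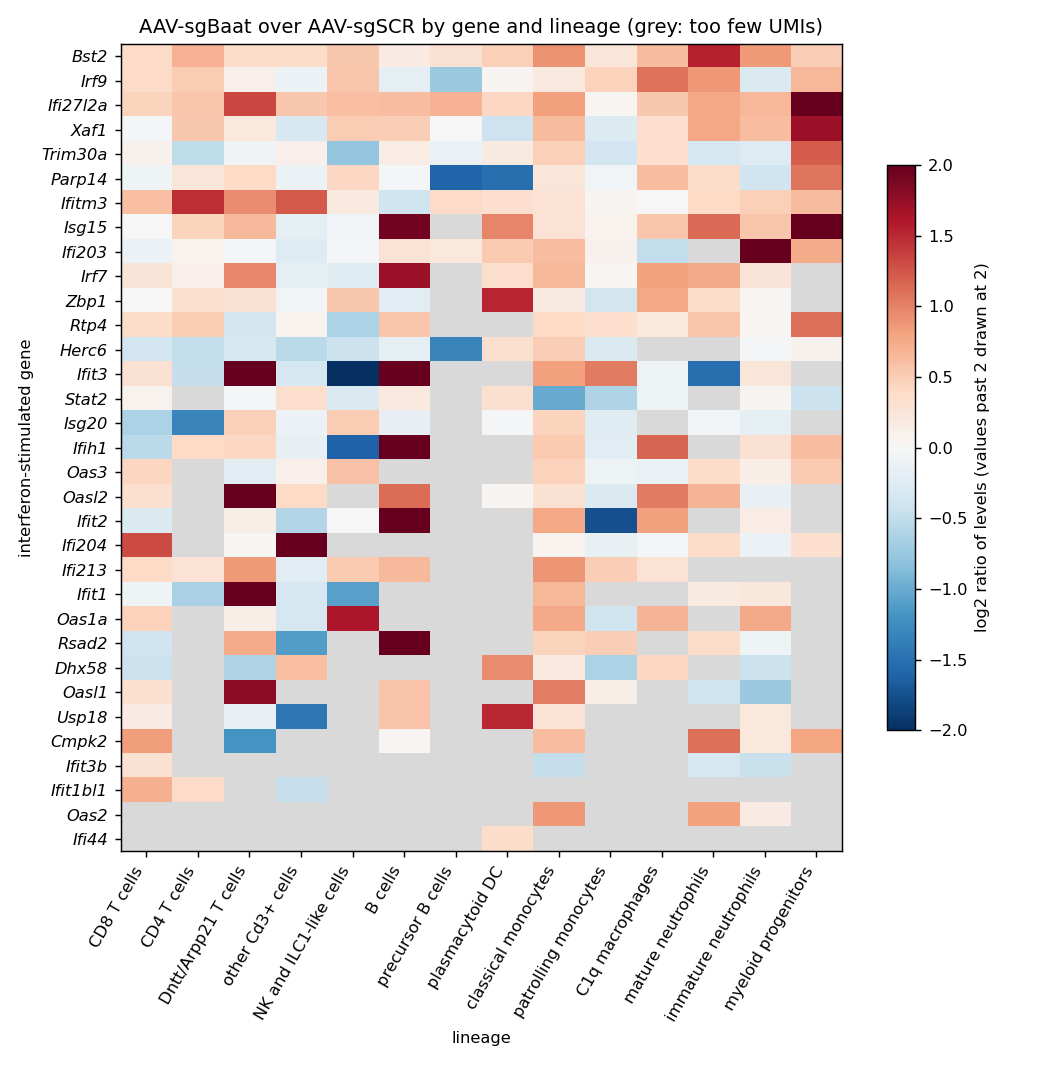
Log2 ratio of AAV-sgBaat over AAV-sgSCR for each member (vertical) in 14 lineages with at least 50 barcodes in both libraries (horizontal), with grey for pairs with under 20 UMIs and values past 2 drawn at 2. The Bst2 and Ifi27l2a lines are above 0 in all 14 lineages, and the Herc6 line is below 0 in 9 of 12.

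Over the 14 lineages, 327 pairs of a member and a lineage were counted, of which 220 were higher in AAV-sgBaat and 107 lower, in lineages where 46% of all 103831 gene and lineage pairs were higher. Past 1.5-fold were 83 higher and 22 lower member pairs, beside 8.82% and 13.5% of all pairs. These pooled counts, and those by role below, take ratios as counted. The shares of all pairs read counts under 3 UMIs as 3, so the measures differ slightly. The interval lay above equality in 80 member pairs and below it in 17. The same shares over all pairs were not computed, so these counts cannot be set apart from those of other genes. Of the 29 members counted in at least 7 lineages, 2 (Bst2 and Ifi27l2a) were higher in every lineage and 22 in all were higher in more lineages than they were lower. Stat2 (higher in 5 of 11 lineages), Isg20 (3 of 11) and Herc6 (3 of 12) were lower in more. The genes are taken by role in what follows.

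Among the transcription factors and their brake (Irf7, Irf9, Stat2 and Usp18), 30 of 44 pairs were higher, 9 of them at least 1.5-fold, and 4 were at least 1.5-fold lower (8.82% and 13.5% of all pairs). Irf7, the factor that amplifies interferon alpha transcription, had 121, 111 and 177 CPM in mock, AAV-sgSCR and AAV-sgBaat classical monocytes, a log2 ratio of the AAV libraries of 0.67 (0.38 to 0.96). In B cells Irf7 had 15.3, 18.0 and 59.1 CPM, a ratio of 1.72 (1.03 to 2.41) that came down to 0.01 without 2 strongly positive cells of AAV-sgBaat and 1 of AAV-sgSCR, and in C1q macrophages 83.0 and 145 CPM in the AAV libraries. It was higher in 10 of the 12 lineages that counted it, with NK and ILC1-like cells among the others (62.4 and 52.8 CPM).

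Irf9, the DNA-binding part of ISGF3, was higher in 10 of 14 lineages, with 35.4, 27.5 and 35.9 CPM in CD8 T cells, a ratio of 0.38 (0.07 to 0.69). Stat2, its partner, went the other way in classical monocytes, with 38.0, 34.5 and 17.2 CPM, a log2 ratio with an interval of -1.90 to -0.20 that rested on 86 and 15 UMIs. Usp18, a protease that removes Isg15 and blocks the receptor, had 25.8, 10.4 and 29.7 CPM in plasmacytoid dendritic cells, a ratio of 1.51 (0.41 to 2.65). The other Cd3-positive cells had 7.91, 17.8 and 6.50 CPM, a ratio of -1.45 (-2.51 to -0.50). Usp18 thus went in opposite directions in these lineages.

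The Ifit genes, whose products bind viral RNA and block its translation, were the most divided group: 18 of 35 pairs were higher and 17 lower, with 10 and 5 past 1.5-fold (8.82% and 13.5% of all pairs). Ifit3 had 54.6, 27.3 and 48.3 CPM in classical monocytes of mock, AAV-sgSCR and AAV-sgBaat, a ratio of the AAV libraries of 0.82 (0.23 to 1.40). In B cells it had 6.16, 4.62 and 43.3 CPM, a ratio of 3.23 (2.12 to 4.49; 1.66 without the strongly positive cells), and in NK and ILC1-like cells 7.36, 17.4 and 2.58 CPM, a ratio of -2.75 (-5.89 to -0.73) from 22 and 2 UMIs. Those UMIs lay in 5 of 262 NK and ILC1-like cells of AAV-sgSCR and 1 of 229 of AAV-sgBaat. In patrolling monocytes Ifit3 was higher (29.7 and 60.7 CPM, ratio 1.03) while Ifit2 was lower (28.2 and 8.38 CPM, ratio -1.75). Ifit1bl1 had 24.3, 9.45 and 15.5 CPM in CD8 T cells, so that both AAV libraries lay under mock.

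The Oas genes encode enzymes that sense double-stranded RNA and switch on RNase L, together with their relatives Oasl1 and Oasl2. Here 29 of 38 pairs were higher, 12 at least 1.5-fold, and 1 was at least 1.5-fold lower (8.82% and 13.5% of all pairs). In classical monocytes Oasl1 had 2.37, 12.4 and 25.3 CPM (log2 ratio of the AAV libraries 1.02, 0.17 to 1.86) and Oas2 had 16.6, 10.0 and 18.4 CPM (0.87, -0.13 to 1.84). Without the strongly positive cells the Oasl1 ratio was 0.29 (-0.88 to 1.35) and that of Oas2 0.85 (-0.19 to 1.84). Oasl2 had 165 and 265 CPM in mature neutrophils of the AAV libraries (0.68, 0.23 to 1.12) and 41.5 and 85.0 CPM in C1q macrophages (1.03, 0.19 to 1.97). Oas1a had 5.62, 6.32 and 19.3 CPM in NK and ILC1-like cells, a ratio of 1.61 (0.28 to 3.06), and the pair past the fold in the lower direction was Oasl1 in immature neutrophils, with 10.2 and 6.13 CPM.

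Sensors of nucleic acids (Ifih1, Dhx58 and Zbp1) and the Ifi200 genes (Ifi203, Ifi204 and Ifi213, relatives of DNA sensors) were higher in 41 of 62 pairs, with 15 and 3 past 1.5-fold (8.82% and 13.5% of all pairs). Ifi204 had 1.59, 7.71 and 19.0 CPM in CD8 T cells, a ratio of 1.30 (0.81 to 1.78), the highest of the members counted there. In the same CD8 T cells the macrophage genes C1qa, C1qb and C1qc summed to 1.06, 16.0 and 55.2 CPM, and their part in the Ifi204 level was not tested. Classical monocytes had the highest level of Ifi204 in mock among lineages with at least 50 barcodes. They had 294, 236 and 248 CPM in mock, AAV-sgSCR and AAV-sgBaat, a ratio of 0.07 (-0.16 to 0.30). Ifi203 lay below equality in CD8 T cells, with 301, 268 and 246 CPM (-0.12, -0.23 to -0.01), and above it in classical monocytes, with 230, 189 and 290 CPM (0.62, 0.39 to 0.84). Ifih1, the RNA sensor MDA5, had 11.1, 15.3 and 10.5 CPM in CD8 T cells (-0.54, -1.11 to -0.02) and 1.99, 4.11 and 17.3 CPM in B cells (2.08, 0.66 to 3.57; 1.09 without the strongly positive cells).

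Bst2 led the membrane and direct antiviral proteins (with Ifitm3, Rsad2, Cmpk2, Isg20 and Trim30a), of which 48 of 68 pairs were higher, 17 and 5 past 1.5-fold in each direction (8.82% and 13.5% of all pairs). Bst2 had 204, 186 and 347 CPM in classical monocytes (0.90, 0.68 to 1.11) and 61.4, 92.5 and 134 CPM in NK and ILC1-like cells (0.53, 0.14 to 0.93). It had 97.0, 82.4 and 107 CPM in CD8 T cells (0.38, 0.20 to 0.55), and in B cells 54.7, 63.1 and 70.7 CPM (0.16, -0.35 to 0.65). Its interval lay above equality in 11 of 14 lineages.

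Rsad2 (viperin) had 2.08, 3.59 and 34.6 CPM in B cells, a ratio of 3.27 (2.01 to 4.73; 0.70 without the strongly positive cells), the highest of the members counted there, but 15.3 and 7.04 CPM in the other Cd3-positive cells, a ratio of -1.12 (-2.15 to -0.17). Isg20, an RNA exonuclease, had 7.40, 40.5 and 26.0 CPM in CD8 T cells. Both AAV libraries thus lay above mock, and AAV-sgBaat lay under AAV-sgSCR, by a ratio of -0.64 (-0.99 to -0.31).

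In CD8 T cells, B cells and NK and ILC1-like cells Ifitm3 was higher in both AAV libraries than in mock. Transcripts of other cells were read beside it in CD8 T cells and B cells. Ifitm3 had 11.1, 112 and 170 CPM in CD8 T cells of mock, AAV-sgSCR and AAV-sgBaat, and 4.07, 82.1 and 62.0 CPM in B cells. Without the strongly positive B cells Ifitm3 had 82.2 and 23.4 CPM in AAV-sgSCR and AAV-sgBaat, a log2 ratio of -1.81 (-2.66 to -1.07). In NK and ILC1-like cells it had 0 UMIs in mock, where 3 UMIs would be 1.30 CPM, and 40.3 and 46.4 CPM in the AAV libraries. With 0 read as 3 UMIs it was 31.1-fold higher in AAV-sgSCR than in mock, a value that leaves out counting error. In the same CD8 T cells the neutrophil genes S100a8 and S100a9 summed to 2.38, 409 and 290 CPM and the C1q genes to the levels given above for Ifi204. In B cells S100a8 and S100a9 summed to 6.82, 484 and 175 CPM. The part of free RNA in the Ifitm3 levels was not tested.

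The remaining members (Isg15, Herc6, Parp14, Xaf1, Rtp4, Ifi27l2a and Ifi44) were higher in 54 of 80 pairs, with 20 and 4 past 1.5-fold (8.82% and 13.5% of all pairs). Ifi27l2a, a small membrane protein, had 2388, 1904 and 3344 CPM in classical monocytes (0.81, 0.75 to 0.88) and 507, 916 and 1401 CPM in B cells (0.61, 0.50 to 0.73). CD8 T cells had 339, 409 and 554 CPM (0.44, 0.36 to 0.52), and the AAV libraries had 1077 and 1846 CPM in mature neutrophils (0.78, 0.61 to 0.94). Its interval lay above equality in 13 of the 14 lineages, all but patrolling monocytes (2110 and 2168 CPM).

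Isg15, a ubiquitin-like modifier, was higher in 10 of the 13 lineages that counted it. In mature neutrophils it had 101 CPM in AAV-sgSCR and 222 in AAV-sgBaat (1.14, 0.61 to 1.67), in plasmacytoid dendritic cells 46.7, 31.9 and 62.9 CPM in the 3 libraries (0.98, 0.30 to 1.65), and in B cells 5.97, 8.72 and 33.2 CPM (1.93, 0.96 to 2.92; 0.51 without the strongly positive cells). CD8 T cells, by contrast, had 24.1, 37.4 and 37.1 CPM, a ratio of -0.01 (-0.31 to 0.28). In myeloid progenitors it had 6.79 and 47.8 CPM, at the unequal depths given above. Ifi44 reached 20 UMIs in 1 lineage only.

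**Figure D4:**
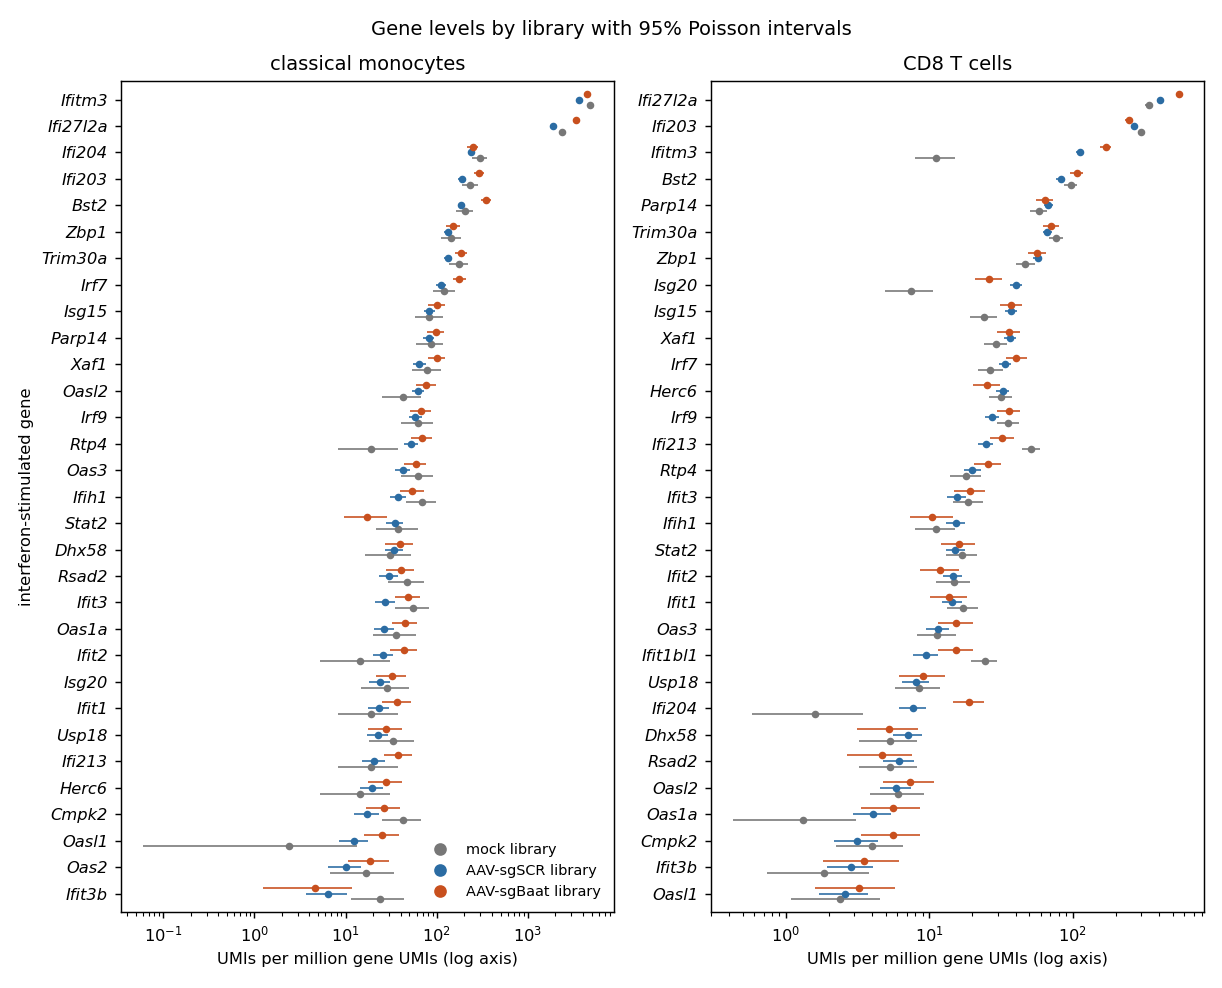
Level of each member in CPM (log axis) in classical monocytes and in CD8 T cells, 1 point per library with its 95% counting interval, for members with at least 20 UMIs, with points at 0 UMIs not drawn. In classical monocytes the AAV-sgBaat point lies above the AAV-sgSCR point for Bst2 (347 against 186) and below it for Stat2 (17.2 against 34.5), and in CD8 T cells the points of Isg15 lie together (37.4 and 37.1).

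The comparisons with mock share libraries with each other and with the comparison above, so their values are given side by side. From mock to AAV-sgSCR the summed level was lower in classical monocytes (log2 ratio -0.34) and plasmacytoid dendritic cells (-0.56), and higher in CD8 T cells (0.16), CD4 T cells (0.25), NK and ILC1-like cells (0.31) and B cells (0.31). The other Cd3-positive cells were level (0.00, -0.05 to 0.06). Without Ifitm3 the CD8 T cell ratio was 0.06. Among cells of 5000 to 10000 UMIs alone, classical monocytes of AAV-sgSCR still lay under mock (7925 and 9637 CPM), while plasmacytoid dendritic cells were nearly equal, as given above. In classical monocytes 23 of 31 members were lower, 6 at least 1.5-fold (14.4% of all genes), and 3 at least 1.5-fold higher (16.6%). In NK and ILC1-like cells 17 of 25 members were higher, 9 of them called (9.88% of all genes). In plasmacytoid dendritic cells 15 of 23 were lower, 8 of them called (21.4%), and 0 were called higher (19.8%).

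From mock to AAV-sgBaat, B cells had 24 of 30 members higher and 18 called higher, where 21.1% of all genes were called. CD4 T cells had 13 of 21 members called higher (16% of all genes), and classical monocytes 8 of 30 (15.7%). NK and ILC1-like cells had 8 of 23 called higher (7.95%) and CD8 T cells 7 of 30 (20.2%), so the CD8 T cell share lay close to that of all genes. Plasmacytoid dendritic cells had 13 of 21 lower and 5 of them called lower (27.7%). CD8 T cells, CD4 T cells, NK and ILC1-like cells and B cells of both AAV libraries thus had summed levels above mock, while in classical monocytes only the AAV-sgBaat library did. Plasma cells went the other way, with 2170, 902 and 1308 CPM in mock, AAV-sgSCR and AAV-sgBaat from 31, 20 and 10 cells.

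To see whether a higher level sat in a few cells or in all, each barcode was thinned to 1000 gene UMIs, and a cell was called strongly positive when at least 3 UMIs came from the core list. The core list names 12 of the most inducible members (Isg15, Ifit1, Ifit1bl1, Ifit2, Ifit3, Ifit3b, Rsad2, Usp18, Cmpk2, Oasl1, Mx1 and Ifi44), of which 11 were counted. Strongly positive cells were 22 of 5620 gated cells in mock (0.391%, 0.245% to 0.592%), 75 of 5568 in AAV-sgSCR (1.35%, 1.06% to 1.69%) and 40 of 4558 in AAV-sgBaat (0.878%, 0.628% to 1.19%). Without thinning the shares were 3.49%, 9.09% and 6.52%. Over the same gated cells the summed level of the members was 1904, 2315 and 2178 CPM, so that AAV-sgSCR had the highest share and the highest sum. These pooled values mix lineages, which the libraries held in different proportions.

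By lineage, mature neutrophils had the largest shares in the AAV libraries, 10 of 232 cells (4.31%) in AAV-sgSCR and 5 of 120 (4.17%) in AAV-sgBaat. Immature neutrophils had 14 of 661 (2.12%) and 8 of 443 (1.81%). CD8 T cells had 4 of 590 (0.678%) in mock, 20 of 1899 (1.05%) in AAV-sgSCR and 7 of 833 (0.840%) in AAV-sgBaat. The other Cd3-positive cells had 1 of 844 (0.118%), 13 of 474 (2.74%) and 8 of 710 (1.13%). The intervals of the AAV libraries overlapped in each of these lineages.

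In CD8 T cells, leaving the strongly positive cells out moved the summed log2 ratio of AAV-sgBaat over AAV-sgSCR from 0.21 to 0.25, so the difference lay outside them. In plasmacytoid dendritic cells it moved from 0.43 to 0.47, in mature neutrophils from 0.52 to 0.66, in classical monocytes from 0.49 to 0.47 and in B cells from 0.54 to 0.34. The cells were chosen by their core UMIs, so leaving them out lowers a library's core level by construction, and the core values that follow show only how much of it they held. In B cells 2 of 305 cells held 69.4% of the core UMIs of the AAV-sgBaat library, and the core ratio moved from 1.91 to 0.28 without them and the 1 such cell of AAV-sgSCR. These 2 cells held 29 of the 41 Irf7 UMIs, 20 of the 30 Ifit3 UMIs, 20 of the 24 Rsad2 UMIs and 15 of the 23 Isg15 UMIs of AAV-sgBaat B cells. In the remaining B cells Irf7 had 17.5 CPM in both AAV libraries, and Isg15 had 8.22 and 11.7 CPM, a log2 ratio of 0.51 (-0.92 to 1.82). Ifi27l2a, spread over many B cells, kept a ratio of 0.58 (0.47 to 0.70).

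In classical monocytes 3 of 157 AAV-sgBaat cells held 55.0% of the core UMIs, 6 of 318 AAV-sgSCR cells held 33.7%, and 3 of 51 mock cells held 62.9%. Without them the core ratio moved from 0.53 to -0.02, with Isg15 at 62.9 and 50.6 CPM in AAV-sgSCR and AAV-sgBaat (-0.31, -0.84 to 0.18). Bst2 (0.90, 0.68 to 1.12), Ifi27l2a (0.83, 0.76 to 0.89) and Irf7 (0.61, 0.29 to 0.93) stayed higher in the remaining monocytes. Over all classical monocytes, strongly positive cells included, the thinned sum of AAV-sgBaat was higher by 2-fold at the lower decile and 1.29-fold at the median. It was higher by 1.21-fold at the upper decile and 1.21-fold at the top percentile. An even shift would move every quantile by 1 ratio, and the quantiles of a small whole-number sum move in coarse steps. NK and ILC1-like cells had 3 strongly positive cells of 262 in AAV-sgSCR, which held 47.6% of the core UMIs, and 0 of 229 in AAV-sgBaat (interval up to 1.60%). Without these 3 cells the core log2 ratio of NK and ILC1-like cells moved from -0.43 to 0.49, and their summed ratio from 0.10 to 0.30.

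**Figure D5:**
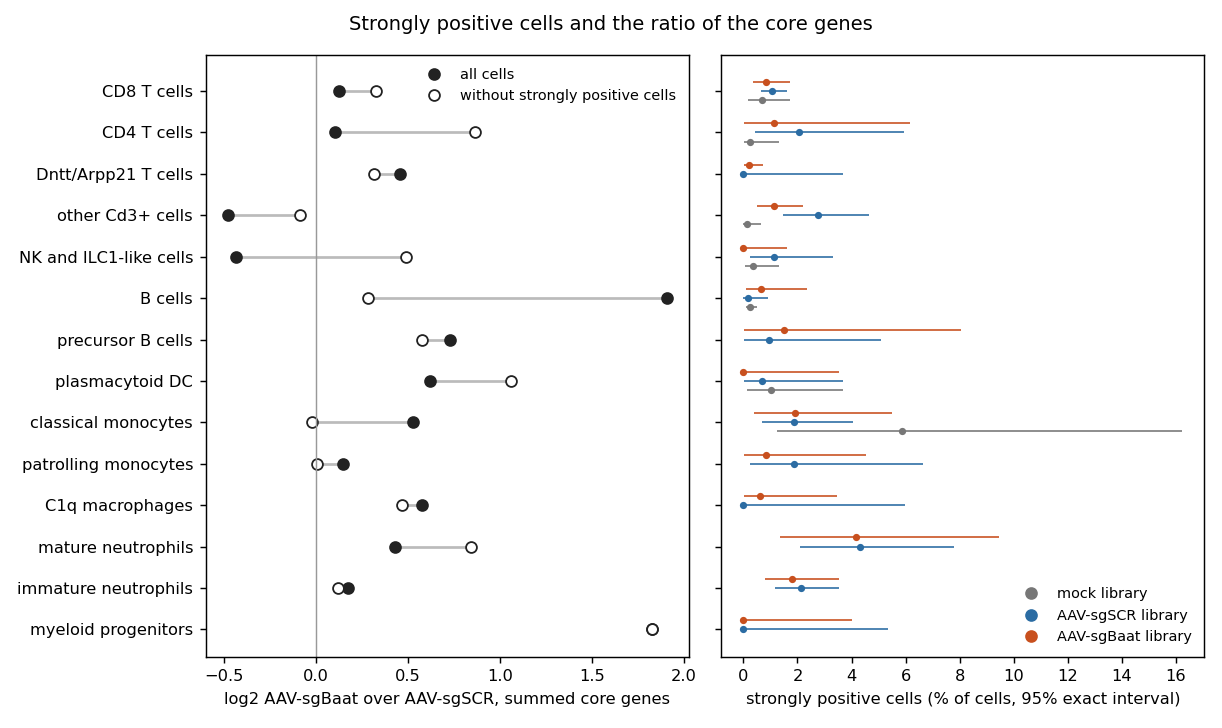
Left, log2 ratio of AAV-sgBaat over AAV-sgSCR of the summed core genes by lineage, with all cells (filled) and without strongly positive cells (open); right, share of strongly positive cells in percent by library with its 95% interval. The B cell ratio moves from 1.91 to 0.28 and that of classical monocytes from 0.53 to -0.02, and the shares of mature neutrophils (4.31% and 4.17%) lie above those of lymphocytes.

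The strongly positive cells were then described by members that did not choose them. Among the 20 such CD8 T cells of AAV-sgSCR, 12 of the 22 other members had enough UMIs to expect at least 3 in these cells at an even level, and 11 were at least 1.5-fold above the rest of the CD8 T cells, where 9.85% of 4112 genes were. Bst2 stood at 509 CPM in them and 78.1 in the rest, Zbp1 at 482 and 52.6, and Ifi27l2a at 1528 and 397. Oas3 stood at 182 and 9.74 CPM, from 20 and 105 UMIs, but had too few UMIs to be among the 12. Ifitm3 went the other way, with 72.8 and 112 CPM. Cxcl10, a chemokine gene induced by interferons, stood at 773 and 18.5 CPM, from 85 and 199 UMIs, also too few to be counted by that rule. Members outside the core list in strongly positive cells of the other Cd3-positive gate (6 of 6 counted, background 14.9%) and of immature neutrophils (8 of 8, background 18.9%) of AAV-sgSCR were all at least 1.5-fold above the rest of those cells.

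In CD8 T cells and classical monocytes, cells with an Ifit3 UMI held Isg15 more often than the others, although most such CD8 T cells lacked it. In CD8 T cells of AAV-sgSCR, Isg15 was detected in 46.2% of the 78 cells with an Ifit3 UMI and in 10.1% of the others, and Ifit1 in 43.6% and 2.80%. In AAV-sgBaat Isg15 was detected in 28.6% of the 42 cells with Ifit3 and 9.10% of the others, and in mock in 34.2% of 38 cells and 8.15%. Classical monocytes with Ifit3 held Isg15 in 65.6% of 32 cells (AAV-sgSCR) and 50% of 18 cells (AAV-sgBaat), against 25.5% and 15.1% of the others. Deeper cells detect more of every gene, and these shares were not thinned.

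The surface tags split the CD8 T cells by the Thy1 variants CD90.1 and CD90.2. CD90.1-dominant cells were 12 in mock, 1145 in AAV-sgSCR and 414 in AAV-sgBaat, and their summed level was 1383 CPM (1354 to 1411) in AAV-sgSCR and 1769 CPM (1704 to 1836) in AAV-sgBaat. CD90.2-dominant cells had 1319, 1596 and 1657 CPM in mock, AAV-sgSCR and AAV-sgBaat, and the AAV libraries overlapped in their intervals (1558 to 1635 and 1598 to 1718). The core genes were lower in CD90.1-dominant cells than in CD90.2-dominant cells of the same library, with 63.5 and 197 CPM in AAV-sgSCR and 99.5 and 152 CPM in AAV-sgBaat. From AAV-sgSCR to AAV-sgBaat the core level was thus higher in the former and lower in the latter.

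Of the other genes of the pathway, 102 were listed and 97 had a feature. The ligands were nearly absent: 18 type I interferon genes had a feature, 7 had any UMI, and all of them together had 6 UMIs in mock, 16 in AAV-sgSCR and 15 in AAV-sgBaat. Ifng, the type II ligand, had 568, 227 and 308 CPM in NK and ILC1-like cells, where the AAV libraries differed by 0.44 (0.19 to 0.69), and 134, 129 and 142 CPM in CD8 T cells. The receptor chain Ifnar1 had 55.3, 45.1 and 36.5 CPM in CD8 T cells (-0.30, -0.60 to -0.02), and Ifnar2 a ratio of -0.03 (-0.24 to 0.17). In classical monocytes Ifnar1 had 61.7, 48.5 and 46.0 CPM and Ifnar2 223, 195 and 217.

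Socs1, which blocks the receptor kinases, had 64.0, 91.7 and 59.2 CPM in NK and ILC1-like cells (-0.63, -1.16 to -0.13). Cxcl10 had 19.0, 71.8 and 228 CPM in classical monocytes (1.66, 1.36 to 1.96), although it was detected in 9.80%, 4.40% and 5.73% of these cells.

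Interferon-stimulated genes outside the 34 were counted too. In classical monocytes 31 of 40 were higher in AAV-sgBaat, 7 at least 1.5-fold and 2 at least 1.5-fold lower, with a median of 0.31. In CD8 T cells 23 of 42 were higher, 1 at least 1.5-fold and 0 at least 1.5-fold lower, with a median of 0.02. The shares of all genes past 1.5-fold were 6.95% and 13.7% in classical monocytes and 8.97% and 11.6% in CD8 T cells, as given above. In plasmacytoid dendritic cells 18 of 27 were higher, with a median of 0.29. In B cells 13 of 30 were higher (median -0.05), in mature neutrophils 10 of 21 (-0.03) and in immature neutrophils 13 of 34 (-0.08), where 18 of 24, 17 of 22 and 19 of 30 members were. Of all genes counted, 44.5% were higher in classical monocytes, 46.9% in CD8 T cells and 46.6% in plasmacytoid dendritic cells. The share was 41.9% in B cells, 38.5% in mature neutrophils and 40.1% in immature neutrophils. In classical monocytes and plasmacytoid dendritic cells most of these interferon-stimulated genes thus lay on the same side as the members. In B cells and both neutrophil stages most were not higher, as was so for all genes.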

How the data were processed

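Droplet 3′ libraries of 3 pools (6 samples with their antibody libraries, whose tags were read from the mRNA matrices) were used. The authors deposited raw UMI counts per feature and barcode, made with Cell Ranger 6.0.1 per the file headers and on mm10 per the submitters' processing notes, without normalization. Deposited totals were 32005400, 62570529 and 48359443 gene UMIs (mock, AAV-sgSCR, AAV-sgBaat).

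Barcodes with at least 500 genes and 1000 gene UMIs and at most 10% mitochondrial UMIs were kept. Lineages were gated on summed marker UMIs. The gate thresholds, and the rule that plasmacytoid markers are read first, were set after marker counts were seen. No doublet caller was run, and barcodes passing gates of different compartments were set apart. UMIs were summed per lineage and library. Ratios carry exact conditional Poisson intervals, sums exact Poisson and shares exact Clopper-Pearson intervals at 95%. Counts under 3 were read as 3 in calls between libraries within a lineage and over all genes, but not in pooled counts of members. Where a level is 0, 3 counts stand for 0. With 1 library per group no test was run. Genes with at least 20 UMIs over both libraries were counted, and 1.5-fold was the call.

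The members and lists were chosen with earlier results of these data known. Members named per lineage are the 4 highest and 4 lowest ratios, the 5 with most UMIs and Isg15, Ifit3, Irf7, Stat2, Irf9, Usp18, Bst2, Ifitm3 and Rsad2. Pathway genes named are Ifnar1, Ifnar2, Ifnb1, Ifng, Socs1 and the 3 highest and 3 lowest ratios, and 1 listed gene is not reported here. The text prints a part of these, and Zbp1, Oas3 and Cxcl10 in strongly positive cells and Ifit1 in the shares of cells were chosen after their values were seen. The steps were tested on simulated data. Promoter windows and loci are RefSeq's (GRCm38.p6). Tools were Python 3.11.15, numpy 2.4.6, scipy 1.17.1, pandas 2.3.3 and matplotlib 3.10.9. Alternatives changed the gates, filters, depth, weighting of cells, member list and the definition of strongly positive cells.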

Additional observations from a re-analysis of the deposited data

How the results depend on the processing

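The log2 ratio of the summed members, AAV-sgBaat over AAV-sgSCR, was recomputed 158 times over all lineages and alternatives, and 147 values lay above 0 and 11 below (NK and ILC1-like cells, CD4 T cells, other Cd3-positive cells, patrolling monocytes and cDC2). With mixed barcodes kept it was 0.35 in NK and ILC1-like cells, 0.53 in classical monocytes and 0.30 in mature neutrophils. With doubled marker thresholds it was 0.30 in CD8 T cells, 0.23 in NK and ILC1-like cells and 0.39 in classical monocytes, where 8 members, not 13, were at least 1.5-fold higher. With at least 2000 UMIs it was 0.63 in B cells and 0.73 in mature neutrophils. With at most 5% mitochondrial UMIs it was -0.10 in NK and ILC1-like cells and 0.44 in classical monocytes, and 9 of the 10 lineages left were higher. As a mean over cells it was 0.45 in classical monocytes and 0.42 in mature neutrophils. Without the 3 members with most UMIs it was 0.11 in CD8 T cells and 0.31 in cDC1. Thinned to 1000 UMIs it was -0.043 in NK and ILC1-like cells, 0.89 in cDC1, 0.41 in classical monocytes and 0.38 in mature neutrophils. Among cells of 2000 to 5000 UMIs, an alternative chosen after seeing the data, it was 0.14 in CD8 T cells and 0.65 in mature neutrophils. Values in B cells (0.45 to 0.63), CD8 T cells (0.11 to 0.30) and classical monocytes (0.39 to 0.53) stayed above 0 in every alternative run, and cDC1 gave no value with doubled thresholds or in that depth window. Without strongly positive cells, also chosen after seeing the data, the members at least 1.5-fold higher numbered 8, not 13, in classical monocytes, 0, not 9, in B cells (5 of the 9 were then under 20 UMIs) and 6, not 4, in CD8 T cells. Shares of all genes were not computed for that alternative. Strongly positive cells in mock, AAV-sgSCR and AAV-sgBaat were 1.18%, 2.94% and 2.54% after thinning to 2000 UMIs, 1.10%, 3.05% and 2.37% with at least 2 core UMIs, and 0.214%, 0.647% and 0.241% with at least 5. Beyond the cells or genes each alternative leaves out, the cause of these changes was not tested. No paired analysis was possible because each group is 1 library. Depth limits the core genes most, since many rest on fewer than 50 UMIs in a lineage and library.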
